A study of Ovis aries with 3 samples.

Results

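The miR-200 family was represented by 6 of the 822 miRNA rows of the count files: the known sheep miRNAs oar-miR-200a, oar-miR-200b, and oar-miR-200c, and 3 predicted rows. The members were chosen by name and sequence and not by their counts. Of the predicted rows, novel_mir_179 contains the sequence of oar-miR-200b, and novel_mir_178 and novel_mir_357 are miR-429 at lengths of 21 and 22 nt. The rows were therefore read singly and with the 2 miR-200b rows and the 2 miR-429 rows added up. Small RNA was sequenced in Small tailed Han sheep, with 1 library for the duodenum (DU), 1 for the cecum (CE), and 1 for the proximal colon (CO). The labels describe the tissue as mucosal epithelium, and no treatment is stated. RNA of the same 3 ewes, 11 months of age, was pooled for each segment. There was no replicate, so every test below compares libraries by their reads and says nothing of the variation among sheep. The files held 13769740 to 15072945 counted reads in a library. Where 3 values follow each other without names, they are in the order DU, CE, CO.

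The miR-200 family is known for holding cells in the epithelial state. Its members silence the transcription factors ZEB1 and ZEB2, which repress E-cadherin, and they are abundant in epithelia and scarce in smooth muscle and fibroblasts. In mammals the family is made from a pair of gene clusters, 1 with miR-200b, miR-200a, and miR-429 and 1 with miR-200c and miR-141. In the RefSeq annotation of sheep (assembly ARS-UI_Ramb_v3.0, not the Oar_v4.0 build to which the authors mapped their reads), MIR200A and MIR200B are direct neighbors on chromosome 12 between TTLL10 and C12H1orf159, and MIR200C lies on chromosome 3 between PHB2 and PTPN6. A miRNA finds its targets mainly through its seed, bases 2 to 8, so the members fall into groups by seed as well as by cluster.

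The mature sequences, as deposited and written as DNA, are shown because the family is divided by seed and because both pairs of rows differ at the 3′ end only. Bases 2 to 8 are in capitals.
oar-miR-200b: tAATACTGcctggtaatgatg
novel_mir_179: tAATACTGcctggtaatgatgac
oar-miR-200c: tAATACTGccgggtaatgatgg
novel_mir_178: tAATACTGtctggtaatgccg
novel_mir_357: tAATACTGtctggtaatgccgt
oar-miR-200a: aACACTGTctggtaacgat
novel_mir_95: tAACACTGtctggtaaagatg

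The last row is no member by the rule. It is miR-141, the partner of miR-200c in its cluster, and was matched by sequence to give the family its remaining miRNA. AATACTG stood at bases 2 to 8 in 5 of the 822 rows, all of which were members. Counted from the 5′ end of oar-miR-200b, oar-miR-200c differed from it by T11G, and miR-429 differed by C9T, A19C, and T20C. The 2 rows of miR-200b had the same first 21 bases, as had the 2 rows of miR-429. The row of oar-miR-200a is 19 nt long and starts 1 base later than miR-141. Its own bases 2 to 8 are ACACTGT, whereas AACACTG, the seed of miR-141, starts at base 1 of the row. Over the 19 bases that both share, oar-miR-200a differed from miR-141 by A17C, counted from the 5′ end of miR-141. The authors allowed reads to be displaced against the mature sequence, so the counts do not tell at which base the reads of oar-miR-200a start.

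Together the 6 members had 482762, 419781, and 643075 reads. Scaled to 1000000 reads mapped to the genome, these were 28850, 24685, and 38816 normalized reads. The CO library was the highest. The CE library was the lowest on this scale, although its order with the DU library turned when oar-miR-143 was left out of the library size. That library size was the sum of the counted reads without oar-miR-143. The family made up 3.34%, 2.78%, and 4.67% of the counted reads.

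miR-200b was the most abundant member. Its 2 rows together had 13748, 12782, and 20017 normalized reads, provided that no read was counted in both. At these levels it held rank 11, 11, and 8 among all rows. The 21-nt row, oar-miR-200b, had 4450, 4395, and 8835 normalized reads, so the DU and CE libraries lay close together and the CO library stood apart. The 23-nt row, novel_mir_179, had 9298, 8386, and 11182 normalized reads, and its levels were closer to each other.

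miR-200c, the member of the other cluster, had 8108, 6592, and 8886 normalized reads. miR-200a, which pairs with miR-200b in the genome but has the other seed, had 6756, 5122, and 9655 normalized reads. Both had their highest level in the CO library and, on this scale, their lowest in the CE library, an order of DU and CE that turned for miR-200c without oar-miR-143 in the library size.

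miR-429 was scarce next to the others. The 22-nt row, novel_mir_357, had 3959, 3216, and 0 reads. The 21-nt row, novel_mir_178, had 0, 0, and 4268 reads. No library had reads in both rows, and each library had reads in 1 of them. Added up, miR-429 had 237, 189, and 258 normalized reads, in the order CO, DU, CE from high to low, in which DU and CE also changed places without oar-miR-143 in the library size. miR-141 had 87.6, 62.3, and 129 normalized reads, again with the highest level in the CO library.

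**Figure D1:**
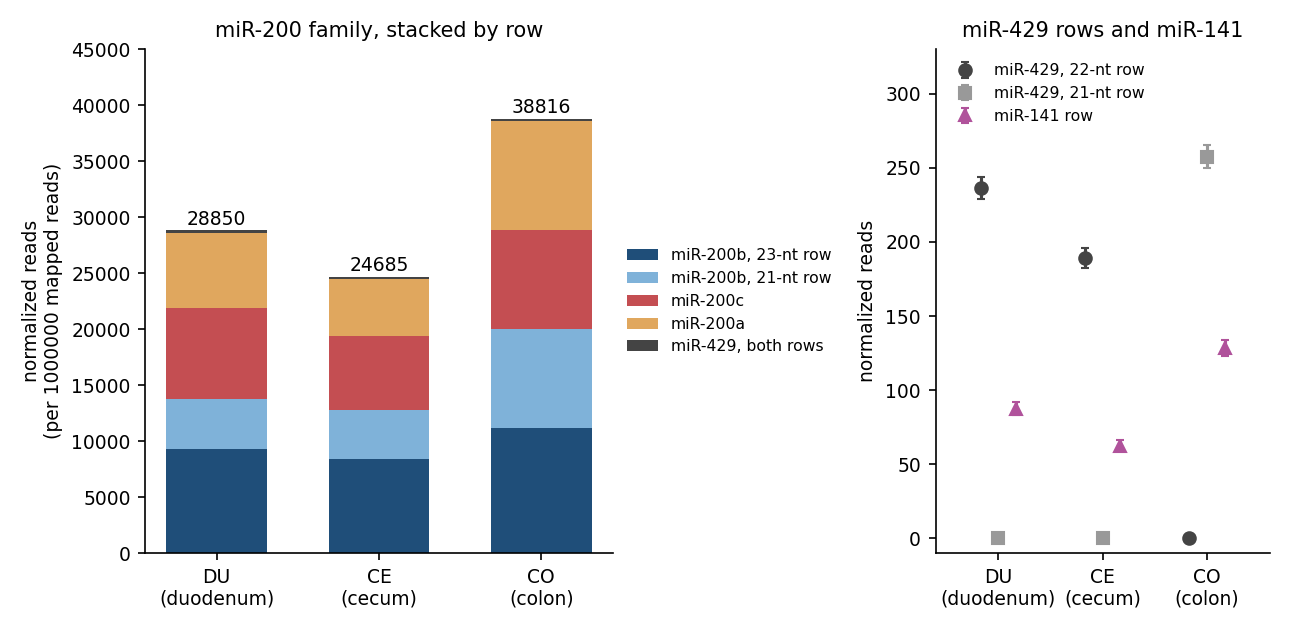
Normalized reads (per 1000000 reads mapped to the genome) of the miR-200 family in the DU, CE, and CO libraries. Left, rows stacked to the family total of 28850, 24685, and 38816. Right, the rows of miR-429 and miR-141 as points with exact 95% Poisson intervals, where each library has reads in only 1 of the 2 miR-429 rows.

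In the comparison of the CO and CE libraries, all 4 miRNAs of the family had lower levels in the CE library. The family total was 1.57 times as high in the CO library (log2 ratio of CE to CO -0.65, exact 95% interval -0.66 to -0.65). For miR-200a the log2 ratio was -0.91 (-0.93 to -0.90), and for the summed miR-200b rows it was -0.65 (-0.65 to -0.64). For miR-429 it was -0.45 (-0.51 to -0.38), and for miR-200c it was -0.43 (-0.44 to -0.42). The median of the 4 miRNAs was -0.55, while that of all 324 rows tested with both pairs summed was -0.06.

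These differences were larger than the counting error but smaller than the fold change of 2 that the study required beside a Bonferroni-corrected p-value under 0.01 (exact Audic-Claverie test on the reads, which compares libraries and not segments). With both pairs summed, 0 of the 4 miRNAs were called, against 21.9% of all rows tested. miR-200a passed the fold change of 2 only with the sum of the file as the library size (-1.01). As deposited, 22.7% of the 326 rows tested were called, among them 3 members, oar-miR-200b, novel_mir_178, and novel_mir_357. In the higher-in-CO direction 12.9% of the rows were called, and in the higher-in-CE direction 9.82%. The interval of the 21-nt row oar-miR-200b, -1.02 to -0.99 around -1.01, lies on both sides of a fold change of 2. The 23-nt row had a log2 ratio of -0.42 (-0.42 to -0.41). The call of the 21-nt row was lost in the sum of both rows, with DESeq2 size factors (-0.96), and when edgeR was given an assumed variation between animals (biological coefficient 0.2 or 0.4).

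The calls of novel_mir_178 and novel_mir_357 pointed in opposite directions. A 0 was counted as 4 reads, since the predicted rows list no count between 0 and 5. On that count, novel_mir_178 was at least 1095-fold higher in the CO library and novel_mir_357 at least 783-fold higher in the CE library. Both bounds fail if reads of 1 row were listed under the other. Each row entered the test only through the libraries that list it, so these calls follow from the listing. With both rows added up, a log2 ratio of -0.45 remained for miR-429. miR-141 was called, with a log2 ratio of -1.04 (-1.15 to -0.94, corrected p = 4.25e-85, exact Audic-Claverie test). It was no longer called with DESeq2 size factors (-0.99) or with either assumed coefficient.

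Of the rows, 107 reached 1000 reads in the CO and in the CE library. Their median log2 ratio of CE to CO was 0.05, and their quartiles were -0.18 and 0.21. Counted from the lowest value, miR-141 had rank 3, miR-200a rank 4, miR-200b rank 7, miR-429 rank 14, and miR-200c rank 16. All 5 were below the first quartile of these rows.

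**Figure D2:**
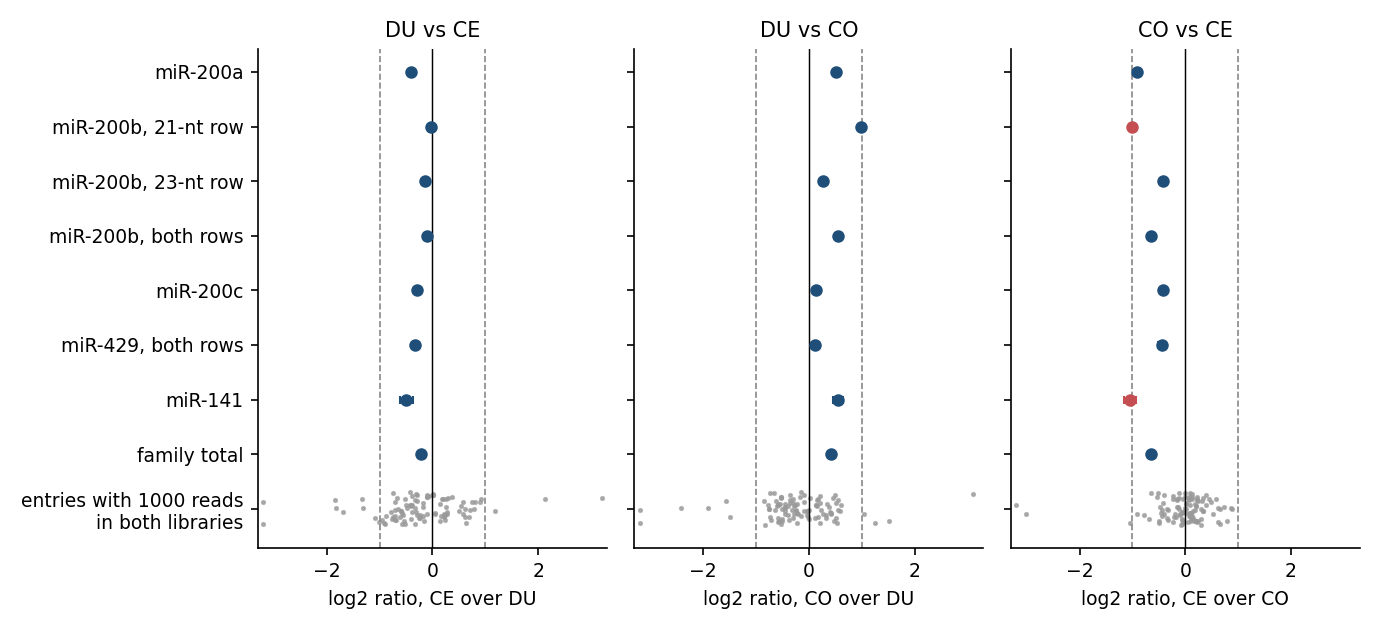
Log2 ratios of the second to the first library in the 3 comparisons, with exact 95% intervals that are mostly smaller than the points. Red points were called (fold change 2 or more with a corrected p-value under 0.01), dashed lines mark a fold change of 2, and gray points are the rows that reached 1000 reads in each of the 2 libraries (those beyond 3.2 are drawn at the edge). In the CO vs CE panel, the 4 summed miRNAs lie between -0.91 and -0.43, to the left of most gray points.

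Between the DU and CO libraries, the levels of all 4 miRNAs were higher in the CO library, by less than a fold change of 2. The family total was 1.35 times as high in the CO library (log2 ratio of CO to DU 0.43, 0.42 to 0.43). The summed miR-200b rows had a log2 ratio of 0.54 (0.53 to 0.55) and miR-200a one of 0.51 (0.50 to 0.53). miR-200c and miR-429 differed less, with 0.13 (0.12 to 0.14) and 0.12 (0.06 to 0.19). The p-value of miR-429 stayed above the threshold (corrected p = 0.0428, exact Audic-Claverie test). The median of the 4 miRNAs was 0.32, against -0.19 over all 361 rows tested with both pairs summed.

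With the pairs summed, 0 of the 4 miRNAs were called between the DU and CO libraries, against 33.5% of all rows. As deposited, 33.9% of 363 rows were called (13.8% higher in the CO library and 20.1% higher in the DU library), among them 2 members, novel_mir_178 and novel_mir_357. With a 0 counted as 4 reads, their folds were at least 1078 toward the CO library and at least 980 toward the DU library. These calls again follow from which row each library lists. The 21-nt row of miR-200b had a log2 ratio of 0.99 (0.98 to 1.00) and was not called, and the 23-nt row had 0.27 (0.26 to 0.28). With any of the other 5 library sizes, the 21-nt row passed a fold change of 2, with log2 ratios of 1.03 to 1.44. These include all clean reads (1.09), the divisor named in the study's methods. The sum of both rows did not pass it with any of them. miR-141 had a log2 ratio of 0.55 (0.46 to 0.65, corrected p = 2.11e-27, exact Audic-Claverie test). With all counted reads as the library size, its ratio was 0.61 without a call. The ratio reached 1.00 and a call only with the counted reads without oar-miR-143.

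The family total differed less between the DU and CE libraries than in the other comparisons with reads mapped to the genome as the library size, as did miR-200a and the summed miR-200b rows. miR-200c and the summed miR-429 rows had smaller differences between DU and CO. The levels of all 4 miRNAs were lower in the CE library with reads mapped to the genome as the library size. The family total was 1.17 times as high in the DU library (log2 ratio of CE to DU -0.22, -0.23 to -0.22), a direction that turned without oar-miR-143 in the library size (0.14). The log2 ratio was -0.40 for miR-200a, -0.32 for miR-429, -0.30 for miR-200c, and -0.11 for the summed miR-200b rows. The 21-nt row of miR-200b had -0.02 (-0.03 to -0.003, corrected p = 1, exact Audic-Claverie test). The median of the 4 was -0.31, next to -0.32 over all 347 rows tested. None of the rows was called, 0 of 4 with the pairs summed and 0 of 5 tested rows as deposited, against 36.6% and 36.5% of all rows.

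The direction between the DU and CE libraries depended on the library size. oar-miR-143, an abundant miRNA of smooth muscle and fibroblasts, took 31.9%, 48.4%, and 48.0% of the counted reads. For rows with reads in both libraries, counted in place of mapped reads changed log2 ratios by -0.04 (DU vs CE) and 0.06 (DU vs CO). With oar-miR-143 taken out of the counted reads, the ratios were higher than with mapped reads by 0.37 and 0.45. The part of called rows that were higher in the second library was then 55.6% in place of 33.1% and 58.8% in place of 40.5%. With TMM the ratios were higher by 0.12 and 0.16. Without oar-miR-143, the log2 ratio of the family total between the DU and CE libraries was 0.14 in place of -0.22, while miR-200a remained below 0 at -0.03. The summed miR-200b rows also changed sign with the edgeR TMM library size (0.02). Both ratios with the CO library kept their direction for each of the 4 miRNAs under all 6 library sizes.

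The library size acts alike on all rows with reads in both libraries. It largely cancels out when the family is set against their median. The filter of 1 normalized read still lets different rows into the median for each library size. With reads mapped to the genome, the median log2 ratio of rows with reads in both libraries was -0.24 between DU and CE, -0.17 between DU and CO, and -0.04 between CO and CE. Relative to this median, the family total differed by 0.02, 0.60, and -0.62 in the same order. Without oar-miR-143 in the library size, these values were -0.05, 0.52, and -0.62.

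**Figure D3:**
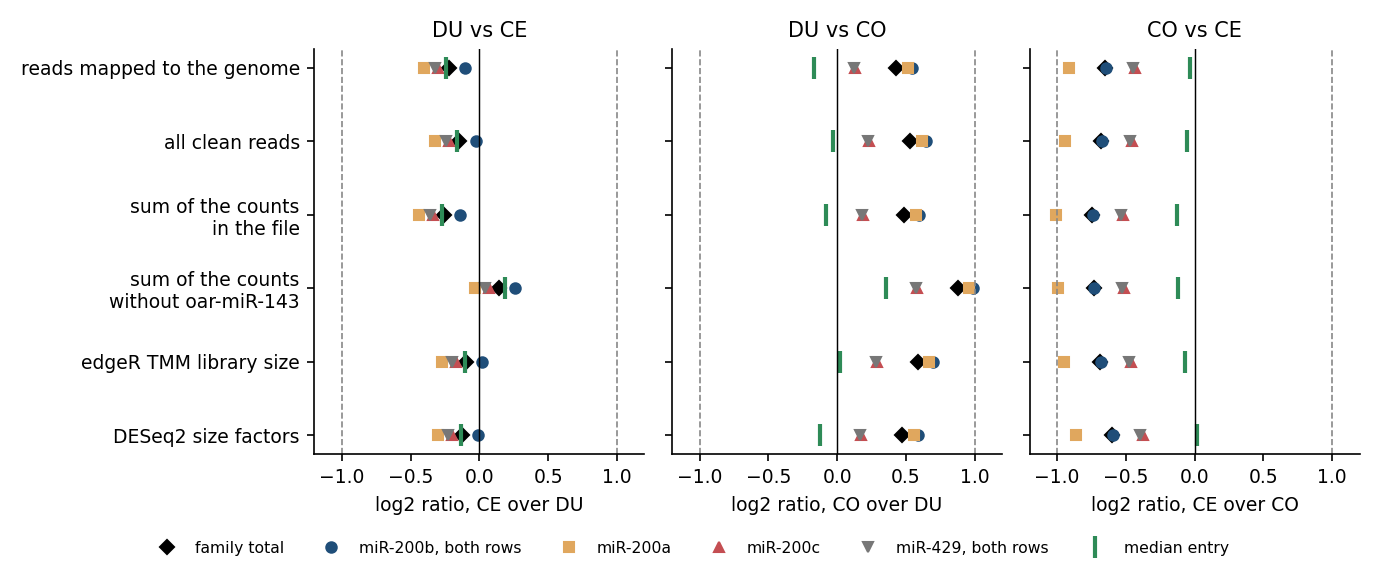
Log2 ratios of the family total, of its 4 miRNAs, and of the median row with reads in both libraries under 6 library sizes, with dashed lines at a fold change of 2. The ratios of the family with the CO library stay on 1 side of 0. The family total between DU and CE moves from -0.22 with mapped reads to 0.14 with the counted reads without oar-miR-143. The summed miR-200b rows also pass 0 with edgeR TMM.

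Within the family, the shares do not depend on the library size. miR-200b with both rows made up 47.7%, 51.8%, and 51.6% of the family reads. The Wilson 95% intervals were 47.5 to 47.8%, 51.6 to 51.9%, and 51.4 to 51.7%. miR-200c made up 28.1%, 26.7%, and 22.9%. miR-200a made up 23.4%, 20.7%, and 24.9%, and miR-429 0.820%, 0.766%, and 0.664%. The CE library thus had the smallest share of miR-200a, and the CO library the smallest share of miR-200c.

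By gene cluster, miR-200b, miR-200a, and miR-429 together took 71.9%, 73.3%, and 77.1% of the family reads. For each read of miR-200c there were 1.70, 1.94, and 2.25 reads of miR-200b and 0.833, 0.777, and 1.09 reads of miR-200a. The ratio of miR-200b to miR-200a, which come from the same cluster, was 2.03, 2.50, and 2.07, so the CE library was set apart in this ratio and the other two were close. By seed, the rows with AATACTG at bases 2 to 8 took 76.6%, 79.3%, and 75.1% of the family reads.

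miR-141 was far less abundant than miR-200c from the same cluster, with 92.6, 106, and 69.2 reads of miR-200c for each read of miR-141. No row matched the sequences of miR-200a-5p and miR-200b-5p, the opposite arms of these hairpins, so they were not analysed here.

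The 2 rows of miR-200b differed between libraries in their balance. The 23-nt row took 67.6% of the reads of both rows in DU (Wilson 95% interval 67.4 to 67.8%), 65.6% in CE (65.4 to 65.8%), and 55.9% in CO (55.7 to 56.0%). For each read of the 21-nt row there were 2.09, 1.91, and 1.27 reads of the 23-nt row. The share in CO minus that in DU was -11.8 percentage points (95% interval -12.0 to -11.5). The share in CE minus that in CO was 9.75 points (9.49 to 10.01). The share in CE minus that in DU was -2.02 points (-2.30 to -1.74, Fisher's exact test on reads, two-sided, Benjamini-Hochberg adjusted over 6 tests, p = 1.96e-46). For both differences with the CO library, the p-value was too small for double precision.

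The 21-nt row had 8835 normalized reads in the CO library against 4395 in the CE library, a wider gap than the 11182 against 8386 of the 23-nt row. Per the study's methods, the predicted rows came from reads left after the search for known miRNAs. How a read that matches both rows was assigned is not given in the sources used here.

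The 2 rows of miR-429 showed no such balance. The 22-nt row held 3959 of 3959 reads in DU (100%, Wilson 95% interval 99.9 to 100%) and 3216 of 3216 in CE (99.9 to 100%). It held 0 of 4268 in CO (0 to 0.0899%). The rows differ by 1 base at the 3′ end, a T. This all-or-none pattern was common among predicted rows. Of 84 pairs of predicted rows in which the longer starts with the whole shorter row, 62 (73.8%) never had reads in the same library. In 33 of these, 1 of the rows had reads in each library, and in 8 of them the pair had at least 100 reads in each library. Among the 6 pairs of a known and a predicted row, 0 showed it.

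**Figure D4:**
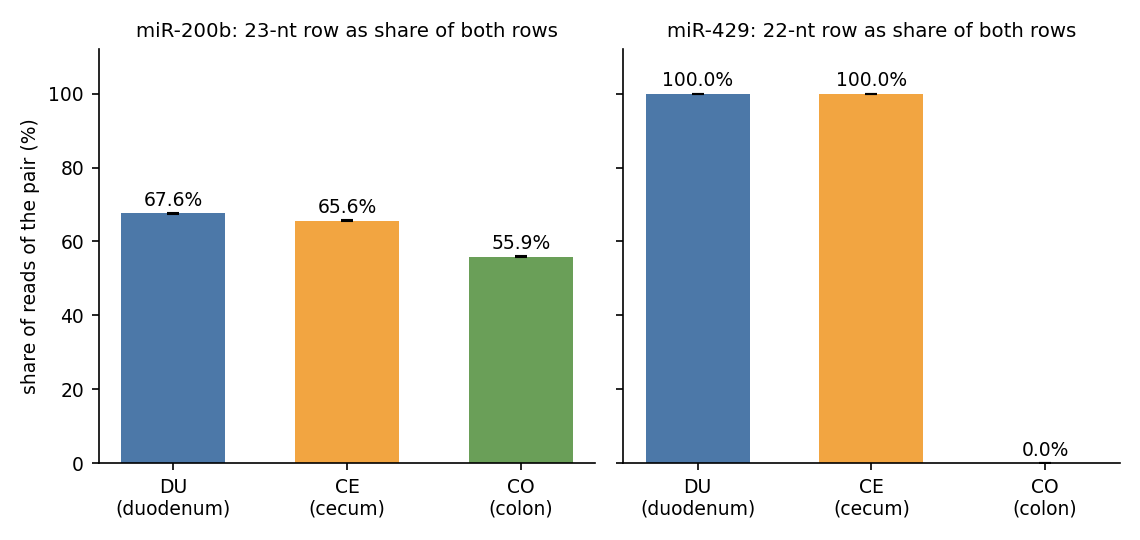
Share of the longer row in the reads of both rows, in percent, with Wilson 95% intervals, for miR-200b (left, 23-nt row) and miR-429 (right, 22-nt row). The miR-200b share is 67.6% and 65.6% in the DU and CE libraries and 55.9% in the CO library, whereas the miR-429 share is either 100% or 0%.

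Only 3 pairs of a shorter and a longer row had at least 1000 reads in both rows and all libraries. Beside miR-200b, these were oar-let-7f with novel_mir_54 and oar-miR-194 with novel_mir_175. The longer row of let-7f took 0.340%, 0.373%, and 0.377% of the reads of its pair. That of miR-194, an enterocyte miRNA, took 49.0%, 1.74%, and 9.21%. Of these 3 pairs, miR-200b was the only one whose longer row was the larger in every library.

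The 5 rows whose pair of log2 ratios (CE to DU and CO to DU) lay nearest to those of the family total were taken from 94 rows with at least 1000 reads in each library. The nearest was novel_mir_151, whose sequence is contained in bta-miR-423-3p, at a Euclidean distance of 0.0893. It had 2068, 1828, and 2640 normalized reads. oar-miR-374a followed at 0.240, novel_mir_194 (nested with bta-let-7e) at 0.261, oar-miR-30c at 0.366, and novel_mir_386 (nested with bta-miR-660) at 0.439. This likeness rests on 3 libraries. For oar-miR-30c and novel_mir_386, the log2 ratio of CE to DU was above 0, at 0.14 and 0.21. The family total, with -0.22, and the remaining rows were below 0.

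Markers of other cell types were read beside the family. Of the enterocyte list, 3 of 3 miRNAs had a row. oar-miR-194 had 9162, 4306, and 6071 normalized reads, and miR-215 had 55441, 435, and 4830. Both were higher in the CO than in the CE library, as the family was, but unlike the family both were highest in the DU library. The row of miR-192 had 57806 and 28847 normalized reads in the DU and CE libraries and was listed at 0 in the CO library. The summed level of the list, 122409, 33588, and 10901, thus rests on 2 miRNAs in the CO library. It leaves out novel_mir_175, the longer row of miR-194, which had 147296, 1297, and 10208 reads.

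Of the smooth muscle and fibroblast list, 4 of 6 miRNAs had a row, with summed levels of 278817, 432482, and 401375 normalized reads. All 4 were lower in the CO than in the CE library. oar-miR-143 had 275281, 429102, and 399239 normalized reads, and oar-miR-133 had 236, 534, and 294. oar-miR-199a-3p had 3299, 2819, and 1842 and was thus highest in the DU library, unlike the other members of the list. miR-214 was listed at 0 in the DU and CO libraries. The labelled mucosal epithelium thus had, beside its enterocyte miRNAs, a smooth muscle and fibroblast miRNA as the row with the most reads in each library. For each read of oar-miR-143 there were 0.105, 0.0575, and 0.0972 reads of the family.

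Of the leukocyte list, 3 of 5 miRNAs had a row, with summed levels of 2781, 1058, and 1123 normalized reads, and all 3 were highest in the DU library. Of the erythroid list, 3 of 3 had a row, with summed levels of 41.6, 38.8, and 28.7 normalized reads. miR-451 was at 0 in every library, and miR-144 had 27, 0, and 0 reads. The sum was thus miR-486 alone in the CE and CO libraries, and mostly miR-486 (40.0) in the DU library. No row matched the 2 endothelial and the 6 other epithelial markers, which were not analysed here. The part of these cell types in the differences of the miR-200 family was not tested. In pooled tissue RNA, fewer epithelial cells and less miRNA per cell cannot be told apart.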

How the data were processed

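Small RNA libraries of the duodenum, the cecum, and the colon were compared, 1 for each segment, each from the pooled RNA of 3 ewes. The authors cleaned the reads, mapped them to Oar_v4.0 with SOAP, assigned known miRNAs by BLAST searches of miRBase, and used miReap for the predicted rows. The submitters' processing notes also name Bowtie. The values deposited by the authors are raw counts of reads in 822 rows, not normalized. Their totals were 14462675 (DU), 15072945 (CE), and 13769740 (CO).

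Counts were divided by the reads mapped to the genome, as the study states them, per 1000000. The formula in the study's methods names clean reads, but the normalized values in its supplements follow from the mapped reads, so clean reads were an alternative. Rows that reached 1 normalized read in a library of the pair entered the Audic-Claverie test printed in the study's methods (2 times the smaller tail, SciPy 1.17.1) on the whole table with Bonferroni correction. A row was called at a fold change of 2 or more with a corrected p under 0.01. For the ratio, 0 became 0.01 normalized reads. Sums replaced their rows before testing. Log2 ratios have exact binomial intervals and shares Wilson intervals at 95%, which cover counting error only. With 1 library for each segment, the quasi-likelihood test of edgeR could not be fitted. edgeR 4.0.16 and DESeq2 1.42.0 served for library sizes and for an exact test with an assumed coefficient of variation. The test was checked on simulated Poisson counts without variation between animals, which does not address the lack of replicates. Rows were matched to miRNA names by sequence, using the sequences of the study's supplements. The RefSeq table served for gene names and neighbors only. Named were the members, their sums, miR-141 and the opposite arms, the 5 rows of nearest pattern, and markers of other cell types. The sequences of miR-200c-5p, miR-141-5p, and miR-429-5p were not analysed here. Other library sizes, filters, corrections, tests, and sums of nested rows were tried as alternatives. The members and lists were chosen with earlier results of these data known.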

Additional observations from a re-analysis of the deposited data

How the results depend on the processing

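The alternatives were other library sizes, filters, corrections, and tests, 1 read added to both counts, and nested rows added up. No paired analysis was possible because each segment had 1 library. Leaving out a replicate was impossible for the same reason, and the depth limits only the rare rows, since the predicted rows list no count of 1 to 4 reads.

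Without oar-miR-143 in the library size, the DU vs CE log2 ratio changed sign for the family total (0.14), both miR-200b rows together (0.26), oar-miR-200b (0.35), novel_mir_179 (0.22), oar-miR-200c (0.0667), and novel_mir_357 and summed miR-429 (0.0422 each). oar-miR-200b also changed sign there with clean reads (0.0593), TMM (0.11), and DESeq2 size factors (0.0780), and the summed miR-200b rows with TMM (0.0195). Adding up nested rows turned the ratio of novel_mir_357 to 0.12 in DU vs CO and to -0.45 in CO vs CE, where novel_mir_178 took the same values without a call. miR-141 was called in DU vs CO at 1.00 with the counted reads without oar-miR-143 as the library size. Its call in CO vs CE was lost at -0.99 with DESeq2 size factors and at -1.04 with an assumed coefficient of variation of 0.2 or 0.4. The miR-200a ratio of CO vs CE was called with the sum of the file (-1.01).

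The rows called over the whole table numbered 127 in DU vs CE, 123 in DU vs CO, and 74 in CO vs CE, and 48, 35, and 15 where both libraries had to reach 10 reads. An assumed coefficient of variation of 0.4 left 38, 40, and 31, and one of 0.2 left 76 in DU vs CE. Adding up nested rows left 44 in CO vs CE. Counting miR-141 in the family was tried only after seeing the data, as was setting a 0 to 4 reads. With miR-141, the share of miR-200b, miR-200a, and miR-429 became 71.7%, 73.1%, and 76.9%. The cause of these changes was not tested. Adding every nested row by its length could not change the shares of the longer rows, since no further row with reads was nested with either pair.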
